A study of Mus musculus with 72 samples.

Results

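This report describes the microRNAs (miRNAs) of mouse lung after a low dose of ionising radiation, 1 Gy, set against sham irradiation. The arrays were those whose labels give lung, a dose of 1 Gy or 0 Gy and miRNA as the measured RNA, which made 6 of the 72 arrays of the series. Female C57BL/6 J mice, aged 6 to 8 weeks, received a single surface dose of X-rays to the whole body, and the 3 controls (mice 1, 11 and 21) were sham-irradiated. Lungs of the 3 irradiated mice (2, 12 and 22) and of the controls were taken 48 h later, so that each group is 3 separate animals. The labels name no transgene or other treatment, and lung powder holds every cell type of the organ, blood in its vessels included. The other groups named here are lungs at 2, 4, 8 and 12 Gy, livers at the same doses and mRNA arrays of the same organs, with 3 mice at each dose. The lung mRNA and miRNA arrays carry the same mouse numbers and are taken here as the same lungs.

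A miRNA is a short RNA cut from a hairpin transcript and loaded onto an Argonaute protein, where bases 2 to 8, the seed, pair with target mRNAs and lower their translation or stability. Radiation damages DNA and activates the transcription factor p53, which induces the miR-34 genes along with Cdkn1a, an inhibitor of the cell cycle. Lymphocytes are among the most radiosensitive cells of the body, and they are rich in miR-150. They also carry miR-142, which other blood cells make as well. Lung tissue itself is rich in the endothelial miR-126 and in the epithelial miR-200 group.

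The sequences that carry the findings are those of the miRNAs that moved at 1 Gy and of those that share a seed with them. They were copied from RefSeq (GRCm38.p6), are written 5′ to 3′, and have the seed in capitals. Among tested miRNAs with a table entry, 3 others shared the miR-34a seed, and of the 4 miR-34a-5p alone passed the test:
miR-34a-5p: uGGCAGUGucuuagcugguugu
miR-34b-5p: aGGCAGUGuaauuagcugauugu
miR-449a-5p: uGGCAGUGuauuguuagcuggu
miR-449c-5p: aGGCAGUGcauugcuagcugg
Both arms of the miR-142 hairpin fell, and each had a seed that no other tested miRNA with a table entry carried:
miR-142a-5p: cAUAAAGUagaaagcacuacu
miR-142a-3p: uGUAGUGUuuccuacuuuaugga
miR-130b-3p fell, and its near copy miR-130a-3p, which differs from it at 2 of 22 positions, is shown with miR-301a-3p because all 3 have the same seed:
miR-130b-3p: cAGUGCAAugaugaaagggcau
miR-130a-3p: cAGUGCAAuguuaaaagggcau
miR-301a-3p: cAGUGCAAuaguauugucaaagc
miR-128-3p did not pass the test. It is shown because, among such miRNAs above background on all 6 arrays and without overlap of the groups, it had the smallest p:
miR-128-3p: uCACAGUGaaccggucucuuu
In the hairpin of Mir142, at chr11:87756864-87756927 on the plus strand, the capitals mark the 5p arm (bases 4 to 24) and the 3p arm (bases 40 to 62):
Mir142: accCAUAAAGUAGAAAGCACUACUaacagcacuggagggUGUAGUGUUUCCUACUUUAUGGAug
The hairpin of Mir34a, at chr4:150068454-150068555 on the plus strand, has the 5p arm at bases 20 to 41 and the 3p arm at bases 64 to 84, again in capitals:
Mir34a: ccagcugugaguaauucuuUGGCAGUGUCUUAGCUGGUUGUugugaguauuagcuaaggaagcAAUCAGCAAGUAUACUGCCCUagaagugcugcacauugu
Mature miR-150-5p, miR-30d-5p and miR-34c-5p are named only. Of the 417 tested miRNAs, 353 were matched to a mature sequence in the table that was used here, and 19 of the 21 miRNAs that the text singles out by their test were among them, each with a seed of its own.

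The array carried 4415 probes for 1881 mouse miRNAs, and each miRNA was read from several spots. A probe counted as measured when a share of 0.5 or more of its spots was well above background by the scanner's own test, and 417 miRNAs with such a probe on 1 or more of the 18 lung arrays were tested. Of these, 243 were well above background on all 6 arrays at 0 and 1 Gy, 114 on some and 60 on none of them. Between 248 and 339 miRNAs were above background on a single array, the fewest in control mouse 21, and no spot was saturated. The 6 arrays lay on 1 slide and were scanned together, which keeps slide differences out of the comparison, but 2 of the controls sat on its first row and the other arrays on its second. The lung mRNA arrays of these mice also shared a slide, with the same controls, mice 1 and 11, on its first row. The part of the row in the mRNA values was not tested. Values are log2 normalized intensities, on which a difference of 1 is a change of 2-fold, and the 6 arrays correlated with each other at r from 0.991 to 0.998 across the 243 miRNAs. The lung mRNA arrays bore out the labelled organ, since the 7 lung epithelial genes that were tested were above background on all 6 arrays with a summed level of 20.2 to 20.3 log2 units, although the study's design text speaks of hearts, and the 4 heart muscle genes tested were above background as well. Array intensities of a tissue cannot tell fewer cells of a type apart from less RNA in each of them.

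At 1 Gy no lung miRNA passed both thresholds, a change of over 2-fold and an adjusted p below 0.05 (limma, Benjamini-Hochberg), so 0 of 417 (0%) were called. With the fold limit left out, 6 of 417 (1.44%) passed the adjusted p, of which 1 was higher at 1 Gy (0.24%) and 5 were lower (1.2%). The radiation-responsive miR-34a-5p rose 1.401-fold, the blood cell miRNAs miR-142a-5p, miR-142a-3p and miR-150-5p fell between 1.403-fold and 1.69-fold, and miR-130b-3p fell 1.49-fold. The remaining miRNA, miR-135a-1-3p, passed with an adjusted p of 0.0354 but was not well above background on any of the 6 arrays, and no fold is given for it. At an unadjusted p under 0.05, 46 miRNAs stood out, 27 lower and 19 higher. Over all 417 miRNAs the log2 fold changes had a median of 0.02.

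For most miRNAs the difference between the doses was of the size of its own error. The median absolute log2 difference among the 243 miRNAs above background throughout was 0.09, with a median standard error of 0.09. For 232 of these 243, and for 398 of the 417, the 95% confidence interval of the difference lay wholly within a 2-fold change in either direction. Of the 243, 0 differed by over 2-fold in their means. The 6 arrays borrow their estimate of spread from the 12 lung arrays at higher doses: fitted alone they gave 0 miRNAs at an adjusted p below 0.05, the lowest being 0.097, with 13 at an unadjusted p under 0.05. The rows of the slide were shared unequally by the groups: against the only control of the second row, mouse 21, 94 miRNAs passed, 86 of them higher, while the median of all miRNAs stood at 0.20, and the part of the row in the values was not tested.

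**Figure D1:**
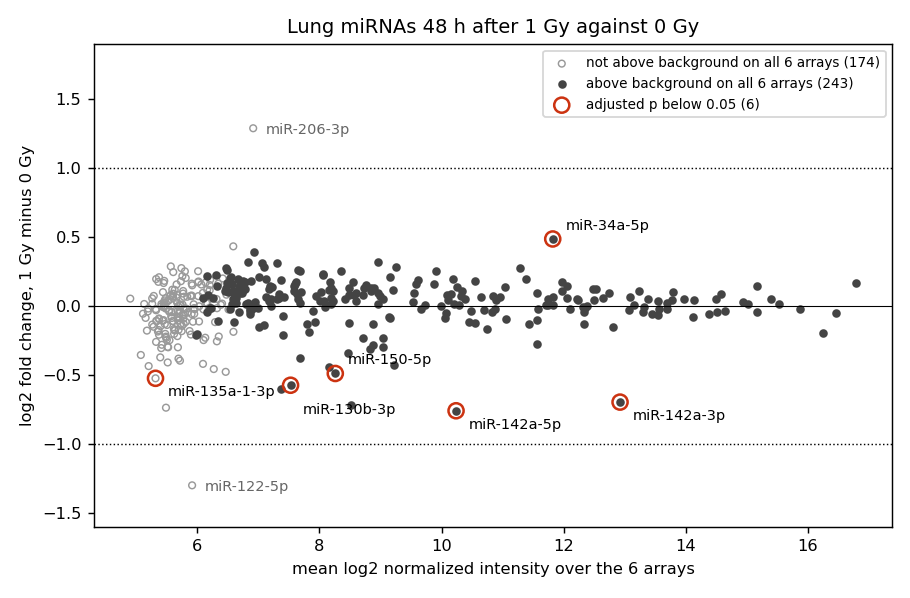
Each point is 1 of the 417 tested lung miRNAs; the horizontal axis is its mean log2 normalized intensity over the 6 arrays and the vertical axis its log2 fold change, 1 Gy minus 0 Gy. Filled points were above background on all 6 arrays, red rings mark the 6 at an adjusted p below 0.05, and none of these reaches the dotted lines at a change of 2-fold.

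miR-34a-5p is induced by p53 and targets transcripts of the cell cycle and of survival. Its log2 intensity in the controls was 11.59, 11.68 and 11.47 for mice 1, 11 and 21, and in the irradiated mice it was 12.11, 12.01 and 12.08 for mice 2, 12 and 22. Every irradiated lung stood above every control lung, by at least the spread within either group (SD 0.10 and 0.05, n = 3). The log2 fold change was 0.49 (SE 0.06, 95% interval 0.35 to 0.62), with an adjusted p of 0.00074. Its 2 probes gave 0.51 and 0.47. The adjusted p stayed below 0.05 with each of the 6 mice left out in turn, at log2 fold changes from 0.44 to 0.54. Scaling every array to the 75th percentile of all its probes, most of which were at background, ended the call (log2 fold change 0.35, adjusted p = 0.99), and fitting the 6 arrays alone gave 0.47 with an adjusted p of 0.097.

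The other arm of the hairpin, miR-34a-3p, also lay higher in every irradiated lung than in any control, but it was not well above background on any of the 6 arrays, so that no fold is given. Of the 3 miRNAs printed above with the same seed, miR-34b-5p, which ciliated cells express, had a log2 difference of 0.11 (SE 0.11) and miR-449a-5p, of the same cells, one of 0.14 (SE 0.15). miR-449c-5p, from the same locus as miR-449a, had one of 0.16 (SE 0.16) and was above background on 1 array in each group. None of these seed mates passed the test, and their groups overlapped.

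Among 10 miRNAs known to be induced by p53, 9 were tested, 1 rose (miR-34a-5p) and none fell, against 0.24% and 1.2% of all tested miRNAs. The median log2 fold change of the 9 was 0.18, and 0.03 with scaling to the 75th percentile of all probes, which moved the median of all miRNAs from 0.02 to −0.09. miR-34b-3p, with 6.93, 7.001 and 6.25 in the controls and 7.20, 6.90 and 7.25 at 1 Gy, differed by 0.39 (SE 0.17, adjusted p = 0.40), and its groups overlapped. In the p53-induced miR-34b and miR-34c genes the low value of control mouse 21 widened the difference: miR-34c-5p stood at 12.06, 12.04 and 11.55 in the controls and at 12.06, 11.95 and 12.17 at 1 Gy. Without that mouse the list's median was 0.01. miR-192-5p, of the epithelium, gave 8.69, 8.74 and 8.63 against 8.89, 8.77 and 8.85, a log2 difference of 0.15 (SE 0.07, adjusted p = 0.42), while miR-107-3p, from an intron of Pank1, differed by −0.02 (SE 0.05).

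The p53 target mRNAs of the same lungs give the size of the response at this dose. Cdkn1a, the cell cycle inhibitor p21, had log2 intensities of 11.40, 11.82 and 11.52 in controls 1, 11 and 21, and of 13.52, 13.06 and 13.48 in irradiated mice 2, 12 and 22. The groups were far apart, and the log2 fold change was 1.77 (SE 0.20, adjusted p = 0.0021). Of 8 p53 target genes tested, 2 rose, Cdkn1a and the death receptor gene Eda2r (log2 fold change 2.29, SE 0.18, adjusted p = 4.8e-05), the latter named after its value was seen, against 0.0242% of the 41254 mRNA probes that passed in either direction. The groups did not overlap for 6 of the 8, all higher at 1 Gy, where 12.8% of all probes were apart in either direction. The list's median log2 fold change was 0.43.

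**Figure D2:**
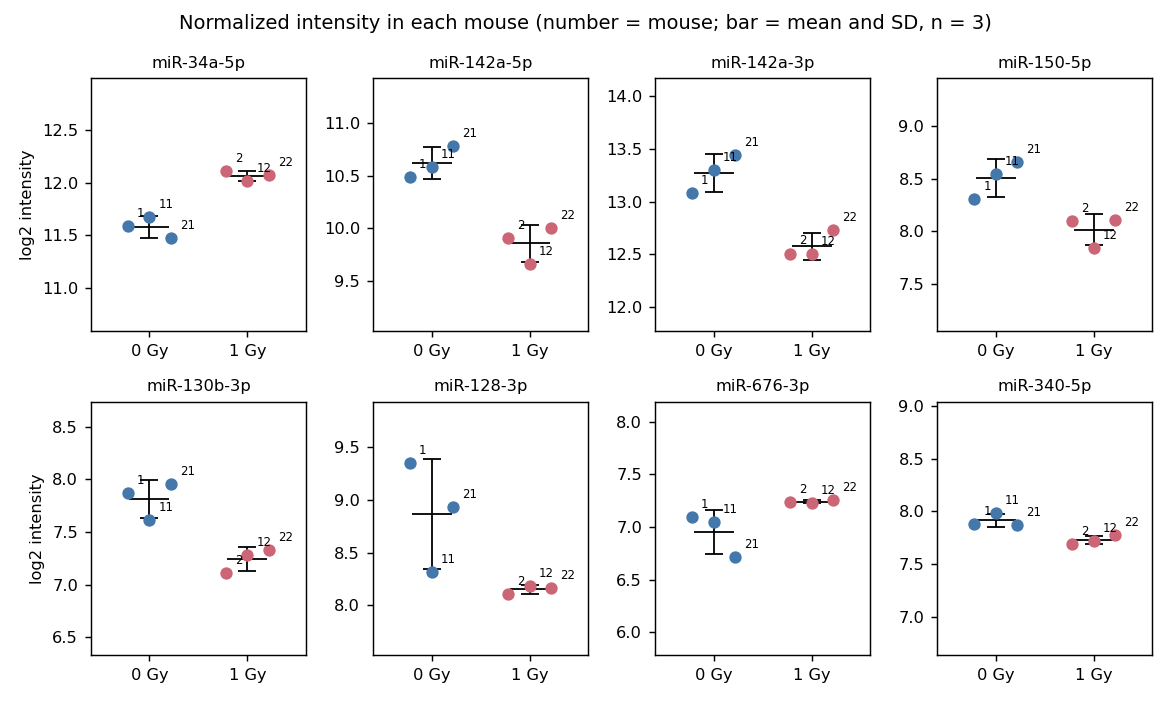
Each panel shows 1 miRNA, with its log2 normalized intensity on the vertical axis (all panels span 2.4 units) and a point for each mouse, numbered, at 0 Gy (blue) and 1 Gy (red), with the mean and SD of 3 mice. The 3 points at 1 Gy lie above all controls for miR-34a-5p and miR-676-3p and below them for the other 6, while the controls of miR-128-3p spread over about 1 unit.

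miR-142a is made in all blood cell lineages except mature red cells and in few other cells. Its 5p arm had log2 intensities of 10.49, 10.58 and 10.78 in controls 1, 11 and 21, and of 9.91, 9.66 and 10.003 in irradiated mice 2, 12 and 22. The groups were apart by more than either spread (SD 0.15 and 0.18, n = 3), and the log2 fold change was −0.76 (SE 0.11, 95% interval −1.002 to −0.52, adjusted p = 0.0019). The 3p arm of the same hairpin stood at 13.08, 13.30 and 13.44 in the controls and at 12.51, 12.50 and 12.73 after 1 Gy. It was lower in every irradiated lung, with a log2 fold change of −0.70 (SE 0.11, adjusted p = 0.0036). The 4 probes of the 2 arms ranged from −0.77 to −0.66. Each arm passed with any of the 6 mice left out, at −0.83 to −0.66 for the 5p arm and −0.79 to −0.62 for the 3p arm.

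miR-150-5p is abundant in mature B and T lymphocytes, where it restrains the transcription factor Myb. Its log2 intensities were 8.30, 8.55 and 8.66 in controls 1, 11 and 21, and 8.10, 7.84 and 8.10 in irradiated mice 2, 12 and 22. All 3 irradiated lungs lay below all 3 controls, with a log2 fold change of −0.49 (SE 0.10, 95% interval −0.70 to −0.28, adjusted p = 0.014). It was the least stable of the leukocyte calls, at −0.47 with an adjusted p of 0.0502 without control mouse 11 and −0.40 with one of 0.11 without irradiated mouse 12.

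Of 10 leukocyte miRNAs, all above background on the 6 arrays, 3 fell (both miR-142a arms and miR-150-5p) and none rose, against 1.2% and 0.24% of all tested miRNAs, and the list's median log2 fold change was −0.18 against 0.02 over all tested miRNAs. Those that did not pass included miR-342-3p, a lymphocyte miRNA in an intron of Evl, with 10.82, 10.86 and 10.82 in the controls and 10.64, 10.70 and 10.67 at 1 Gy. Its groups did not overlap, at a log2 difference of −0.16 (SE 0.08, adjusted p = 0.45), as those of 9.83% of all tested miRNAs did not in either direction. miR-223-3p, of granulocytes and monocytes, was 11.93, 11.69 and 11.47 in the controls and 11.37, 11.498 and 11.39 at 1 Gy, with a log2 difference of −0.28 (SE 0.14, adjusted p = 0.45) and overlapping groups. The immune regulators miR-146a-5p (−0.12, SE 0.06) and miR-155-5p (−0.14, SE 0.07) also had log2 differences below 0 without passing, whereas miR-181a-5p, of lymphocyte precursors, was at 0.07 (SE 0.07) and miR-181b-5p at 0.01 (SE 0.08).

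Lymphocyte transcripts were measured in the same lungs, and none passed the test. All 10 B cell genes had log2 fold changes below 0, with a median of −0.96 and a range from −1.36 to −0.21, and the groups did not overlap for 9 of them, all lower, where 12.8% of all mRNA probes were apart in either direction. Their summed log2 level was 13.98 to 15.20 in the controls and 13.33 to 13.99 at 1 Gy. Without control mouse 1, 2 of the B cell genes passed, as lower. Cd79a, a chain of the B cell receptor, stood at 7.6, 9.1 and 8.7 in the controls and at 7.3, 6.9 and 7.4 after 1 Gy. The 8 T cell genes had a median log2 fold change of −0.87, with 4 apart and lower, and a summed level of 13.24 to 15.11 in the controls against 13.01 to 13.34 at 1 Gy. Control mouse 21 was high in these T cell genes, with Cd8a at 12.1 where the other controls had 8.7 and 9.3 and the irradiated mice 8.1 to 8.3, and without that mouse the T cell median was −0.37. Both miR-142a arms and miR-150-5p passed without mouse 21, at log2 fold changes of −0.68, −0.62 and −0.41 and adjusted p of 0.0099, 0.014 and 0.043. The 7 neutrophil genes had a median of 0.46, with 3 apart and higher and 0 passing. In these lists 0 genes passed at an adjusted p below 0.05, against 0.0242% of all mRNA probes, and 10 probes in all passed, with 2288 at an unadjusted p under 0.05. What part of the fall in the miRNAs goes with the number of lymphocytes was not tested.

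miR-130b-3p belongs to a seed family that acts on growth signalling in many tissues. It had log2 intensities of 7.87, 7.61 and 7.95 in controls 1, 11 and 21, and of 7.11, 7.28 and 7.33 in irradiated mice 2, 12 and 22. The groups were apart, and the log2 fold change was −0.57 (SE 0.11, 95% interval −0.80 to −0.35, adjusted p = 0.0081), with −0.63 and −0.52 at its 2 probes. Leaving out irradiated mouse 2 gave −0.52 and an adjusted p of 0.0535, and scaling to the 75th percentile of the detected probes gave −0.52 with one of 0.078. Its seed mates miR-130a-3p, whose sequence above is nearly the same, and miR-301a-3p, from an intron of Ska2, had log2 differences of −0.02 (SE 0.05) and 0.00 (SE 0.08). The difference between miR-130b-3p and these seed mates was not itself tested.

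miR-128-3p, best known from neurons and also made in blood cells, came from loci on chromosomes 1 and 9. Controls 1, 11 and 21 had log2 intensities of 9.36, 8.32 and 8.93, and irradiated mice 2, 12 and 22 had 8.10, 8.19 and 8.17. The controls spread far more widely (SD 0.52) than the irradiated mice (SD 0.04), and mouse 11 lay close to them. The log2 difference of −0.72 (SE 0.19) had an adjusted p of 0.087. Without control mouse 11 it was −0.99 with an adjusted p of 0.001, and without control mouse 1 it was −0.47 with one of 0.23. R3hdm1, host gene of the chromosome 1 locus, differed by −0.16 (SE 0.29), and no host gene of the chromosome 9 locus was listed.

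Complete separation of the 3 irradiated from the 3 control lungs was seen for 41 of 417 miRNAs (9.83%), of which 21 were higher (5.04%) and 20 lower (4.8%) at 1 Gy. Among those above background on all 6 arrays, 19 were higher and 13 lower. Groups of 3 that do not differ also separate in part of the cases, so separation alone does not mark a response. The 9 miRNAs with the smallest p after miR-34a-5p on the higher side were miR-676-3p, miR-574-5p, miR-672-5p, let-7b-5p, miR-30c-2-3p, miR-30d-5p, miR-331-3p, miR-183-5p and miR-192-5p. Their log2 differences ran from 0.12 to 0.32 and their adjusted p from 0.21 to 0.42, so that none passed. miR-676-3p had 7.09, 7.05 and 6.72 in the controls and 7.24, 7.22 and 7.25 at 1 Gy. miR-574-5p (6.94, 6.78 and 6.31 against 6.95, 7.07 and 6.96) and miR-672-5p (6.99, 7.12 and 6.59 against 7.29, 7.16 and 7.19) likewise had their lowest control in mouse 21. Without that mouse the log2 differences were 0.17 for miR-676-3p, 0.14 for miR-574-5p, 0.16 for miR-672-5p and 0.13 for miR-183-5p, which with all mice were 0.29, 0.32, 0.31 and 0.23. miR-574-5p passed without control mouse 1, at 0.45 and an adjusted p of 0.039. let-7b-5p, of the differentiation-linked let-7 family, had 15.05, 15.12 and 15.11 in the controls and 15.24, 15.30 and 15.17 at 1 Gy, a difference of 0.15 (SE 0.06, adjusted p = 0.40).

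On the lower side, beyond those already described, stood miR-340-5p, miR-19b-3p, miR-3963, miR-15b-5p and miR-18a-5p, with log2 differences from −0.19 to −0.13 and adjusted p from 0.31 to 0.40. miR-340-5p had 7.88, 7.99 and 7.87 in the controls and 7.69, 7.72 and 7.77 at 1 Gy, and the other arm of its hairpin, miR-340-3p, differed by 0.06 (SE 0.08). miR-15b-5p, which restrains cyclins, had 12.81, 12.82 and 13.04 against 12.67, 12.77 and 12.77, and its log2 difference of −0.15 became −0.08 without control mouse 21. That of miR-3963 became −0.07 without control mouse 1, from −0.19. The neighbour of miR-15b in the same transcript, miR-16-5p, with the same seed, had a log2 difference of 0.00 (SE 0.05). As miR-16-5p also has a locus on chromosome 14, its signal does not stand for that transcript alone.

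miR-19b-3p and miR-18a-5p are cut from the transcript of the miR-17 cluster on chromosome 14, which supports the growth of lymphocyte progenitors and many tumours. Copies of miR-19b-3p and miR-92a-3p also lie on chromosome X, and the array does not tell the loci apart. miR-19b-3p stood at 12.46, 12.35 and 12.40 in the controls and at 12.29, 12.26 and 12.28 at 1 Gy. miR-18a-5p stood at 7.92, 7.79 and 7.86 against 7.69, 7.79 and 7.72. Of 10 tested members of this family and its clusters, 0 passed, 7 had values below 0, and the median log2 fold change was −0.09. The members from the same transcript included miR-20a-5p at −0.13 (SE 0.06), miR-19a-3p at −0.08 (SE 0.08) and miR-92a-3p at −0.03 (SE 0.06), and on the other side of 0 miR-17-5p at 0.05 (SE 0.13) and miR-17-3p at 0.07 (SE 0.07).

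**Figure D3:**
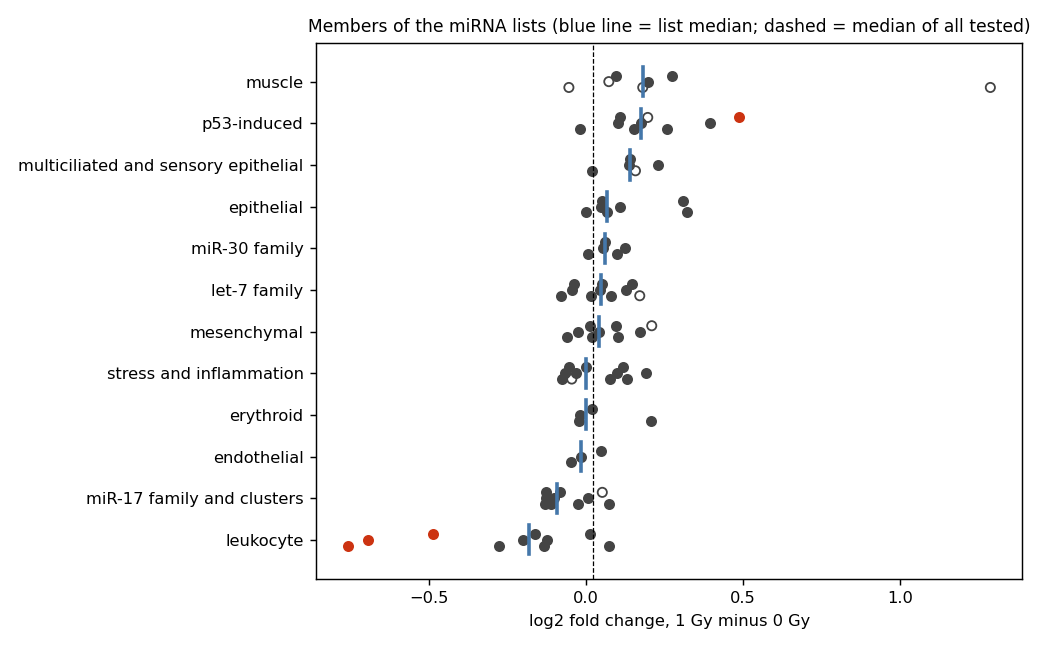
Each row is a list of miRNAs and each point a tested member at its log2 fold change, 1 Gy minus 0 Gy, on the horizontal axis; filled points were above background on all 6 arrays and red points passed an adjusted p below 0.05. Lists with a single tested member (hepatocyte) are not drawn. Blue lines mark the medians of the lists drawn, from −0.18 for leukocyte to 0.18 for muscle miRNAs, and the dashed line the median of all 417, 0.02.

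No miRNA listed for the lung's own cells passed the test. In the endothelial list 3 miRNAs were tested and 0 passed, with miR-126a-3p, which guards the vessel wall, at 16.53, 16.47 and 16.45 in the controls and 16.46, 16.45 and 16.39 at 1 Gy. Its log2 difference was −0.05, with a 95% interval from −0.15 to 0.05. In the epithelial list 7 were tested and 0 passed, and the 5 miRNAs of the miR-200 group, which keep cells epithelial, differed by at most 0.11 on the log2 scale. Among mesenchymal miRNAs 0 of 9 passed, at a median of 0.04. miR-143-3p, of smooth muscle, differed by 0.04 (95% interval −0.12 to 0.20).

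Let-7 members, whose sequences differ by few bases and may share signal between probes, had a median log2 fold change of 0.05 (−0.08 with scaling to the 75th percentile of all probes), with 0 of 10 passing and values from −0.08 for let-7g-5p to 0.17 for let-7k. The 5 members of the miR-30 family, of the epithelium and heart, were all at or above 0, up to 0.12 for miR-30d-5p, with 0 passing and a median of 0.06 that became −0.05 under the same scaling. Of 11 stress and inflammation miRNAs 0 passed. They included miR-21a-5p, which rises in injury and fibrosis, at −0.05 (95% interval −0.25 to 0.14), the hypoxia-induced miR-210-3p at 0.13 (SE 0.08) and miR-221-3p at 0.19 (SE 0.09, adjusted p = 0.42).

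No red cell miRNA or mRNA passed the test. miR-451a, which is abundant in red cells, had log2 intensities of 15.72, 15.93 and 15.99 in the controls and 15.63, 15.93 and 16.02 at 1 Gy, and miR-144-3p, from the same locus, differed by −0.02 (SE 0.19). The 4 erythroid miRNAs tested had a median of 0.00, with 0 passing. The 7 erythroid mRNAs tested had a median log2 fold change of −1.74, from −2.33 to −0.29. The groups did not overlap for 5 of the 7, all lower, where 12.8% of all mRNA probes were apart in either direction. Alas2, which makes haem in red cell precursors, had the lowest log2 fold change of the 7. It stood at 13.6, 13.8 and 13.5 in the controls and at 10.4, 12.6 and 11.0 at 1 Gy, and 0 of the 7 passed the test. Without irradiated mouse 12, 3 of the 7 passed, all lower.

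Some miRNAs of other tissues differed between mice more than between doses. miR-206-3p, of skeletal muscle, was above background in control mouse 11 and irradiated mice 12 and 22, at 8.91, 8.79 and 8.87, and below it in the other 3 lungs. The same 3 mice had the highest miR-205-5p, of squamous epithelium (8.54, 8.41 and 7.93 against 6.04 to 6.82), and the highest miR-133a-3p, of muscle (10.82, 10.75 and 10.84 against 9.26 to 9.87). The groups overlapped for all 3, with log2 differences of 1.29 (SE 1.58), 0.31 (SE 0.90) and 0.20 (SE 0.48). Among the 7 muscle miRNAs 0 passed, with a median of 0.18.

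miR-122-5p, of hepatocytes, was above background in all 3 control lungs, at 6.21, 6.45 and 7.03, and in none of the irradiated ones. Taken against the lowest signal that counted as measured there, the controls were at least 1.64-fold higher, with an adjusted p of 0.58. With the scanner's total gene signal in place of spot signals, miR-122-5p passed an adjusted p of 0.05. The same 2 controls with the highest values, mice 11 and 21, had the hepatocyte transcript Alb at 10.6 and 11.6, against 7.1 in control mouse 1 and 6.9 to 7.6 at 1 Gy. The summed level of the 4 hepatocyte genes tested ranged from 9.14 to 12.91 in the controls and from 8.27 to 8.40 at 1 Gy, with 2 of the 4 above background on all 6 arrays. miR-142a and miR-34a-5p passed with either of these mice left out.

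**Figure D4:**
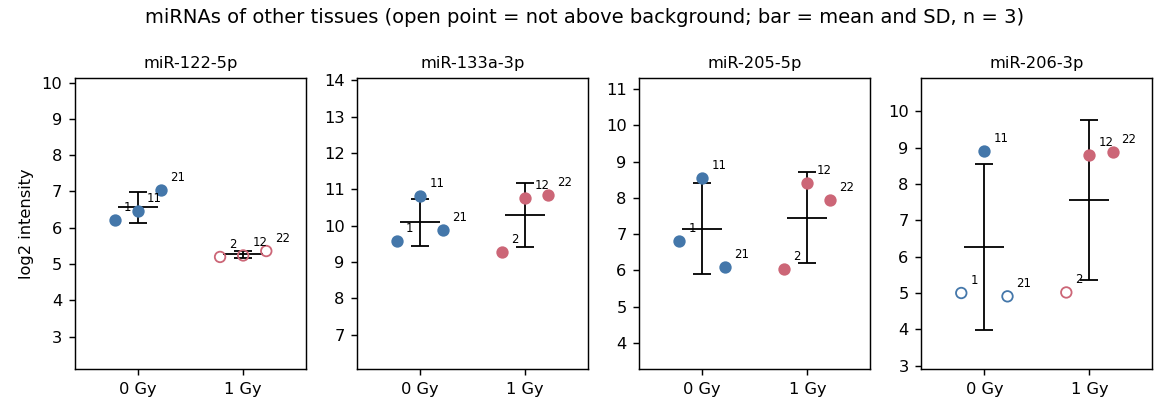
Each panel shows a miRNA of another tissue, with its log2 normalized intensity on the vertical axis (all panels span 8 units) and a numbered point for each mouse, open where it was not above background, with the mean and SD of 3 mice. Mice 11, 12 and 22 are high in miR-133a-3p, miR-205-5p and miR-206-3p, and the 3 irradiated mice are below background in miR-122-5p.

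Higher doses used the same 3 controls, so their comparisons with 0 Gy are not independent of the one at 1 Gy, and they lay on other slides. From the lowest dose to the highest, the values of miR-34a-5p against 0 Gy, as log2 fold changes, were 0.49, 0.83, 0.88, 1.07 and 1.05. miR-142a-5p had −0.76, −1.34, −1.58, −1.70 and −1.90, and miR-150-5p had −0.49, −0.80, −1.13, −1.18 and −1.40. All of these passed an adjusted p below 0.05, and the values at 1 Gy were the smallest of each series. miR-130b-3p had −0.57 at 1 Gy and −0.52 at 2 Gy, and −0.97 at 12 Gy. miR-128-3p had −0.72 at 1 Gy and −0.71 to −0.95 at the higher doses, where it passed.

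**Figure D5:**
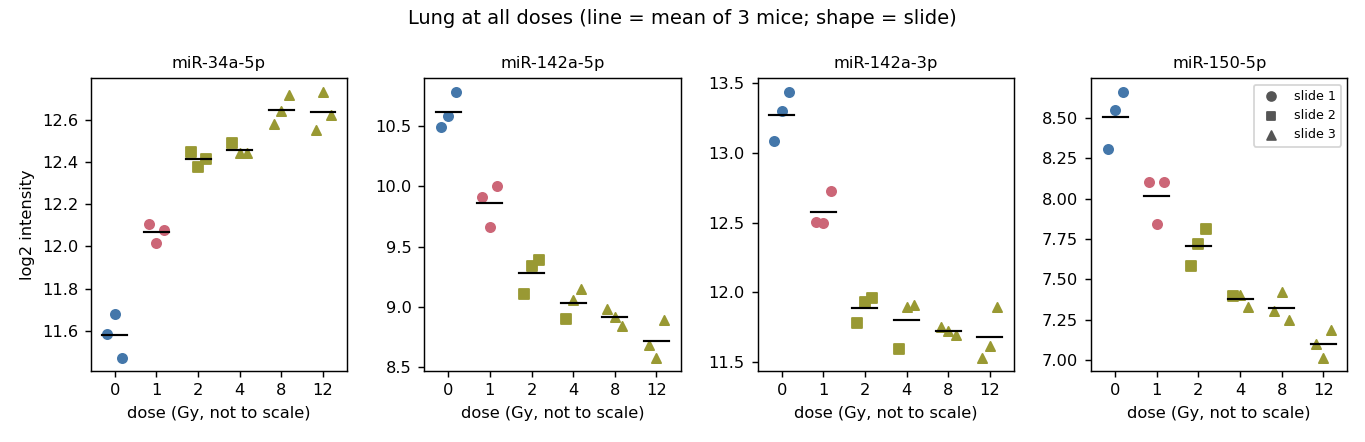
Each panel shows the log2 normalized intensity of 1 miRNA (vertical axis) in each of the 18 lungs by dose in Gy, spaced evenly and not to scale, with the mean of 3 mice as a line and the slide as the shape of the point. Intensities at 1 Gy (red) lie between those at 0 Gy (blue) and those at the higher doses for miR-34a-5p, miR-142a-5p, miR-142a-3p and miR-150-5p.

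Set directly against each other, 12 Gy and 1 Gy differed past both thresholds for 3 of 417 miRNAs (0.719%). miR-142a-5p was lower at 12 Gy by a log2 fold change of −1.14 (SE 0.11, adjusted p = 1.5e-05), while miR-5126 (1.06, SE 0.17) and miR-8101 (1.03, SE 0.20), the latter above background in 2 of the 3 lungs at 1 Gy, were higher. Below the fold limit, miR-150-5p differed by −0.91 (SE 0.10) and miR-34a-5p by 0.57 (SE 0.06). The 12 Gy and 1 Gy arrays lay on separate slides, and dose and slide cannot be told apart here. Scaling to the 75th percentile of all probes called 40 miRNAs, all higher at 12 Gy, and with a random slide effect there were 5.

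Whether the lung and the liver responded unlike at 1 Gy was tested as the difference between the 2 effects over both tissues. Of 428 miRNAs, 0 (0%) passed an adjusted p below 0.05 (limma) and 26 had an unadjusted p under 0.05. miR-34a-5p differed by 0.57 (SE 0.14) between irradiated and control livers, and the lung effect minus the liver effect was −0.10, with a 95% interval from −0.52 to 0.32. In this joint fit, which takes its spread from both tissues, the lung value of miR-34a-5p was 0.47 with an adjusted p of 0.29 and that of miR-142a-5p −0.70 with one of 0.997, so that neither passed there. The difference between the tissues for miR-142a-5p was −0.44, with a 95% interval from −1.31 to 0.44. For miR-142a-3p the liver value was −0.43 (SE 0.12) and the difference −0.27 (95% interval −0.63 to 0.09). The study itself, which asked for a change of over 2-fold and an adjusted p below 0.05, reported no significantly changed liver miRNA at 1 Gy. miR-150-5p and miR-130b-3p were not above background in any of the 6 livers, so that no liver change could be measured for them.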

How the data were processed

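Total RNA of powdered lung was labelled with Cy3 and hybridised to 1-colour Agilent mouse miRNA arrays. The deposited scanner files hold spot intensities from Agilent Feature Extraction 11.5.1.1, per the file headers, and the authors' series table holds normalized values of unstated scale, used as an alternative only. Median signals were corrected with normexp (offset 0) against the local background, control spots were dropped, outlier spots set aside, and the 18 lung arrays quantile normalized, which fixes the overall distribution of each array. Log2 values were averaged over spots and then over the probes of a miRNA. Probes had to be well above background on at least 1 array. limma 3.58.1 in R 4.3.3 fitted the 6 dose groups with Benjamini-Hochberg adjustment, and calls needed a change of over 2-fold in either direction together with an adjusted p below 0.05. The fit was tested on simulated data. Lung mRNA arrays were treated alike per probe, with the brightest probe for a gene, and 26756 of 47906 array accessions matched a RefSeq symbol. Both tissues were normalized together (36 arrays) for their difference.

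The miRNAs named were those at an adjusted p below 0.05, the 10 in each direction with the smallest p among those above background on all 6 arrays and without overlap, and members of the lists, whose further members are given by count. Of the genes in the mRNA lists, Cdkn1a alone was set to be named. Eda2r, Cd79a, Cd8a, Alas2 and Alb were named in addition, with their values known. The comparison, the lists and the tests were chosen with earlier results of these data known. Replicates are separate mice by their labels. Arrays give no depth, and their number limits the precision. Alternatives covered background correction, scaling, filters, probes, slide and each mouse left out, with 2 added after seeing the data (the second slide row, and each mouse left out of the mRNA lists). The liver mRNA arrays were not used here.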

Additional observations from a re-analysis of the deposited data

How the results depend on the processing

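No alternative turned the direction of miR-34a-5p, either miR-142a arm, miR-150-5p or miR-130b-3p, and 18 of 20 alternatives kept each of the first 3 past an adjusted p of 0.05, 16 kept miR-150-5p and 15 miR-130b-3p. The 20 include slide as a fixed term and as a random block. As all 6 arrays lay on 1 slide, these slide terms could not change the fold changes and say nothing about their stability. The exceptions common to all 5 were scaling to the 75th percentile of all probes and the fit of the 6 arrays alone, each with 0 miRNAs at an adjusted p below 0.05. Scaling to the 75th percentile of all probes also left 11 at an unadjusted p under 0.05 and 19 without overlap (18 of them lower), and it turned miR-331-3p to −0.041 and miR-192-5p to −0.038. Scaling over detected probes gave 26 and 22, and the 6 arrays alone 13 at an unadjusted p. The processed signal called 4 miRNAs past both thresholds and gave 13 at an adjusted and 80 at an unadjusted p. The total gene signal called 1 and the authors' series values 1, the latter with 70 at an unadjusted p. With no filter 1881 miRNAs were tested, of which 195 were at an unadjusted p and 172 without overlap. Per probe 760 were tested, of which 11 were at an adjusted p, 89 at an unadjusted p and 89 without overlap. With each mouse left out, 412 to 417 miRNAs were tested, 0 were called, 4 to 12 passed the adjusted p and 28 to 85 an unadjusted p. In these fits 59 to 101 did not overlap, but groups of 2 and 3 separate more readily than groups of 3 and 3. The count of 12 came without control mouse 21 (11 lower). In the second row of the slide alone, chosen after seeing the data, with 1 control against 3 irradiated lungs and the control assumed to vary like the other groups, 1 was called, 94 passed (86 higher), 150 had an unadjusted p under 0.05 and 278 did not overlap, against a median log2 fold change of all miRNAs of 0.20.

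For 12 Gy against 1 Gy, an offset of 50 called 1, 75th percentile scaling of all probes 40, a random slide effect 5, and leaving out a mouse 1 to 7. Slide as a fixed term could not be estimated for that contrast. For lung against liver, separate normalization gave 3 at an adjusted p below 0.05, and leaving out a mouse 0 to 3, with 0 to 1 called. Mouse numbers are shared between tissues, but no label says that a number marks the same animal in both. Same-numbered samples deviated together (r over 0.1) in 4 of 18 mice. Such a check cannot decide the question, because deviations particular to an organ or array would also keep r low. The main fit did not use the number as a pairing. With the mouse number as a replicate block, 0 were called. Lung mRNA probes called numbered 9, 38 with an offset of 50, and 5 to 25 with a mouse left out.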

Other observations

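Many miRNAs are cut from introns of protein-coding genes, whose mRNA was measured in the same lungs. For 30 such pairs, from 25 host genes, 0 host genes and 0 of the miRNAs passed an adjusted p below 0.05 (limma) at 1 Gy against 0 Gy. The host genes had log2 fold changes from −0.55 to 0.20 and the miRNAs from −0.72 to 0.22. Mcm7, which licenses DNA replication and holds miR-106b, miR-93 and miR-25 in an intron, differed by −0.41 (SE 0.17), while miR-106b-5p differed by −0.10 (SE 0.05), miR-93-5p by 0.01 (SE 0.06) and miR-25-3p by 0.07 (SE 0.07). Evl, which holds miR-342, differed by −0.31 (SE 0.15) and miR-342-3p by −0.16 (SE 0.08). Egfl7, which holds the endothelial miR-126, differed by −0.12 (SE 0.15), and its miR-126a-3p and miR-126a-5p by −0.05 (SE 0.04) and 0.05 (SE 0.08).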
